A study of Homo sapiens with 6 samples.

Results

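The extracellular matrix around fibroblasts is built from collagens together with a large set of other proteins, and 50 genes of that second set were followed here, all 50 of which had a probe set among the 19775 genes read from the arrays. They were given as a list of non-collagen matrix genes and were divided by function into 14 glycoproteins, 13 elastic fibre genes, 13 proteoglycan and hyaluronan genes and 10 crosslinking and collagen-modifying enzymes. Their mRNA was measured in IMR90 cells, human diploid fibroblasts that expressed a 4-hydroxytamoxifen (4-OHT)-inducible ER:Ras in every sample, in 3 states with 2 biological replicates each. RB-KD OIS cells spent 6 days in 100 nM 4-OHT, which induces oncogene-induced senescence (OIS). A mixture of 3 siRNAs against RB1, the gene of the retinoblastoma protein (RB), was introduced during that time, 4 days before RNA isolation. Ctrl-KD OIS cells had the same 4-OHT treatment and a control siRNA. Growing cells had neither 4-OHT nor any siRNA, so Ras induction and transfection cannot be told apart in either comparison with growing cells. Either OIS state was compared with growing cells, which asks how the matrix genes stand after Ras induction with RB1 or control siRNAs. The paper reports that RB depletion partly restored DNA replication in OIS cells, so RB-KD OIS cells were not fully arrested. The last of the 3 comparisons was, within OIS, RB-KD against Ctrl-KD, which asks what differs after RB depletion.

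Matrix glycoproteins such as fibronectin, laminins and thrombospondins connect collagen networks with receptors at the cell surface. Elastic fibres consist of elastin laid onto fibrillin microfibrils with the help of fibulins, and small leucine-rich proteoglycans such as decorin and lumican bind collagen fibrils and control their spacing. Before secretion, prolyl and lysyl hydroxylases modify procollagen in the endoplasmic reticulum, and outside the cell lysyl oxidases crosslink collagen and elastin. Senescent fibroblasts are known for a secretory phenotype that includes matrix proteins and the enzymes that degrade them.

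The 6 arrays were of similar overall brightness. The median signal lay between 46 and 51.8, and log2 signals correlated at r = 0.971 to 0.974 between replicates and at r = 0.893 to 0.953 between arrays of different states, across genes, which are not independent replicates. Signals are given for each of the 2 arrays of a state, and values with ± or beside an adjusted p are log2 fold changes, with the standard error after ±. RB1 read 222 and 229 in RB-KD OIS, 2578 and 1915 in Ctrl-KD OIS and 2627 and 2528 in growing cells. It was low on both arrays where it was targeted (log2 fold change -3.30 ± 0.14, adjusted p = 2.73e-06 relative to Ctrl-KD OIS). Of 12 fibroblast markers, all 12 lay above the array median on all 6 arrays, with a summed signal of 185483 to 221588 in RB-KD OIS, 164800 to 167657 in Ctrl-KD OIS and 221569 to 223116 in growing cells. Against growing cells 3 of them rose and 5 fell in RB-KD OIS, and 2 rose and 7 fell in Ctrl-KD OIS. That is 66.7% and 75% with an adjusted p under 0.05 in limma, beside 37.6% and 41.7% of all genes tested. Of 7 epithelial markers and 5 immune markers with a probe set, 0 were above the median on all 6 arrays, and of 7 endothelial markers PECAM1 and TEK were. The endothelial sum was 1474 to 1647 in RB-KD OIS, 588.5 to 639.6 in Ctrl-KD OIS and 1353 to 1476 in growing cells and moved with TEK, while the defining CDH5, KDR and ERG were under the median on all 6 arrays. The smooth muscle and pericyte list had a summed signal of 8562 to 9767 in RB-KD OIS, 7713 to 8709 in Ctrl-KD OIS and 26116 to 27451 in growing cells. ACTA2 and CNN1, which myofibroblasts also express, made up most of that sum, whereas MYH11, a defining marker of smooth muscle, was above the median on 2 arrays and read at most 59.3. Of the 6 genes on this list, 1 rose and 3 fell in RB-KD OIS against growing cells, and 1 rose and 2 fell in Ctrl-KD OIS. That is 66.7% and 50%, beside 37.6% and 41.7% of all genes. The part of these lists in the results was not tested, and in such bulk RNA fewer cells of a type and less RNA per cell cannot be told apart.

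Against growing cells the tested members were more often lower than higher in both OIS states, and within OIS those that differed were mostly higher after RB depletion. The filter for testing in limma, a signal over the median of its array for 2 or more of the 6, was met by 47 members, and a gene was called at an adjusted p under 0.05 over all 13398 genes tested. RB-KD OIS cells had 12 members above and 23 below the growing level, so that 74.5% of the tested members were called. The background over all genes was 37.6% called, 18.5% higher and 19% lower. Ctrl-KD OIS cells had 11 above and 24 below, again 74.5% of those tested, beside a background of 41.7%, with 20.5% higher and 21.2% lower. RB-KD OIS cells differed from Ctrl-KD OIS cells in 17 members (36.2%), of which 14 were higher and 3 lower, beside a background of 24.2%, with 12.6% higher and 11.6% lower. The median log2 fold change of the members was -0.24, -0.50 and 0.10 in these comparisons in the same order, beside -0.02, -0.01 and -0.02 for all genes. Without FBLN2 and MFAP4, which passed the filter only through the growing arrays, it was -0.20, -0.25 and 0.10. Both comparisons with growing cells share the growing arrays. When each array was instead centred on its median, the median of all genes for RB-KD OIS against growing cells was 0.10 in place of -0.02. Of all called genes 61% were then higher there in place of 49.3%, and of the members 14 were higher and 22 lower.

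Signals of the compared states did not overlap for 41 members between RB-KD OIS and growing cells (14 higher and 27 lower, beside 34.2% and 36.3% of all genes, 70.4% in sum) and for 41 members between Ctrl-KD OIS and growing cells (13 higher and 28 lower, beside 35% and 36.2%, 71.3% in sum). They did not overlap for 29 members between the OIS states (20 higher and 9 lower, beside 28.8% and 30.8%, 59.6% in sum), so that with 2 arrays per state non-overlap was common over the whole array. ELN, MFAP5 and OGN were not tested because they were under the median on at least 5 of the 6 arrays. Without FBLN2 and MFAP4, 12 of 45 members were higher and 21 lower in RB-KD OIS, and 11 of 45 higher and 23 lower in Ctrl-KD OIS, relative to growing cells. The smallest two-sided p of an exact permutation test with 2 arrays per state is 0.333, so all p values below are those of limma. It pools the spread over the arrays and draws that of each gene toward the spread of tested genes at a similar signal.

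**Figure D1:**
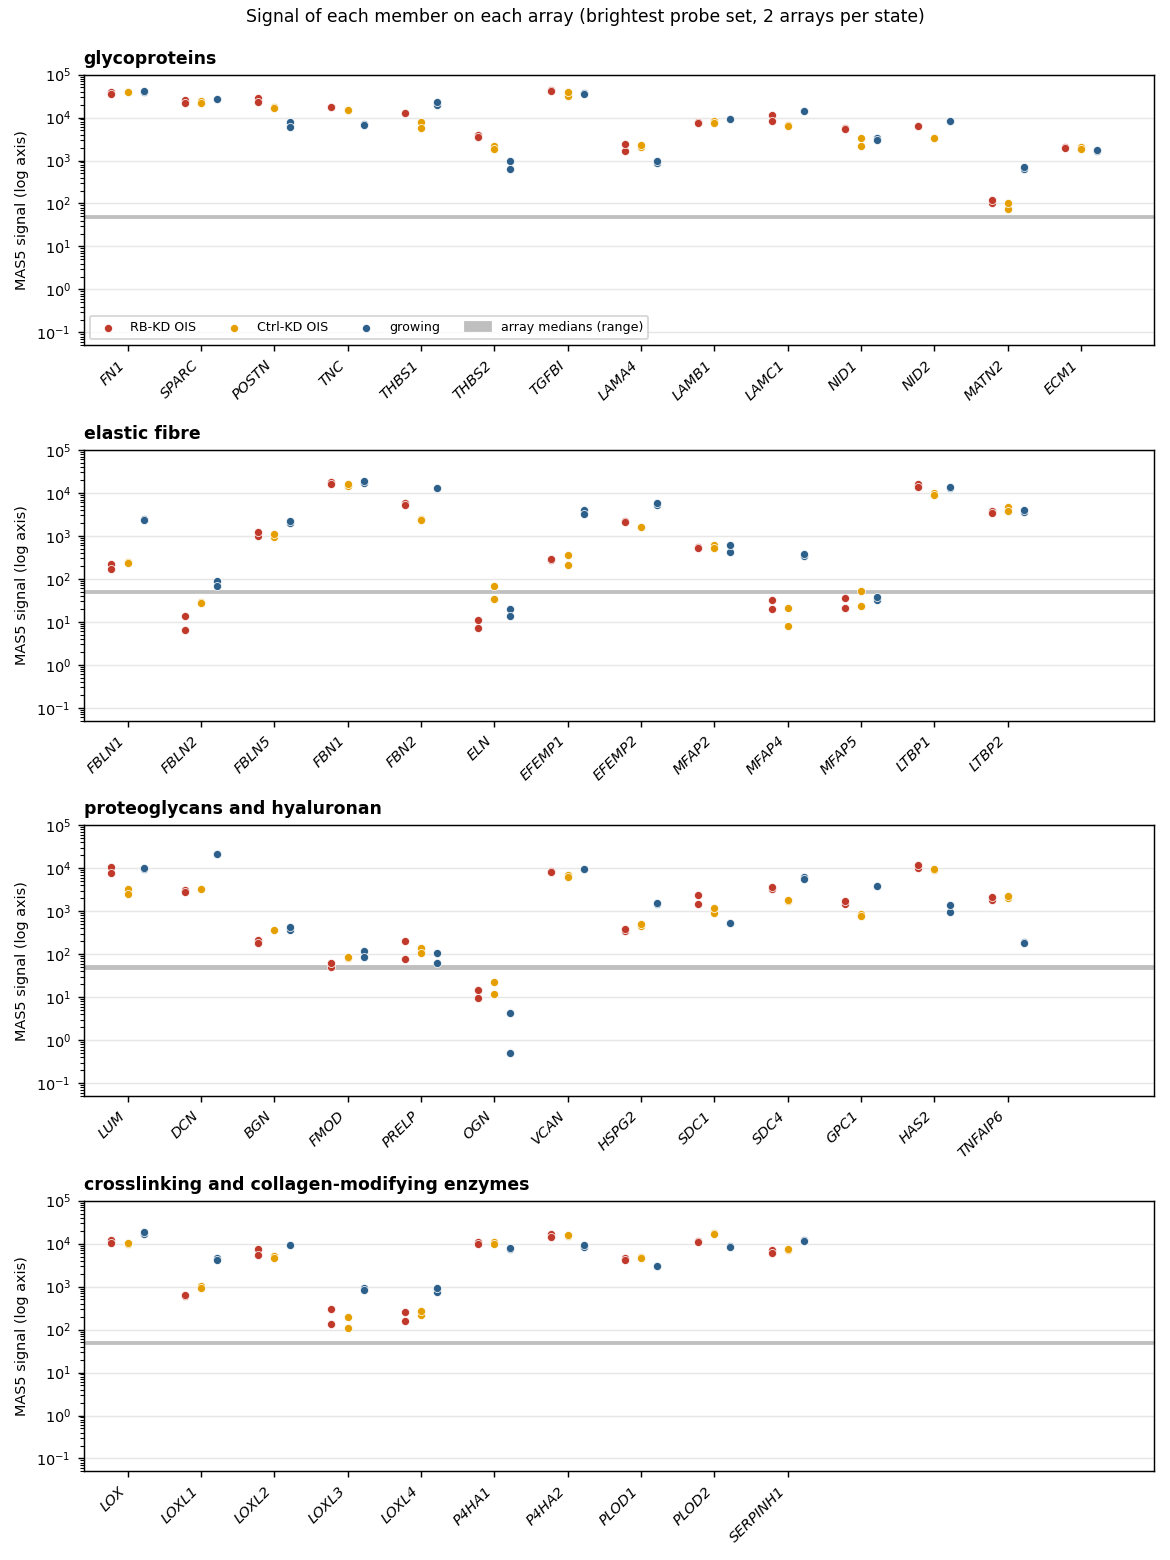
MAS5 signal (log axis, no unit) of the brightest probe set of each of the 50 members, with 1 point per array and 2 arrays for each of RB-KD OIS, Ctrl-KD OIS and growing cells, and the range of the array medians as a grey band. DCN, FBLN1 and EFEMP1 were high on both growing arrays and low on all 4 OIS arrays, HAS2 and TNFAIP6 the other way round, and ELN, MFAP5 and OGN lay around or under the band.

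Among the 14 glycoproteins, 5 rose and 5 fell in RB-KD OIS cells and 4 rose and 5 fell in Ctrl-KD OIS cells, relative to growing cells. The 4 that rose in both states code for matricellular proteins, which modulate how cells attach to and signal through the matrix, and for a laminin chain. Thrombospondin 2 (THBS2), an inhibitor of angiogenesis, read 3949 and 3603 in RB-KD OIS, 2226 and 1831 in Ctrl-KD OIS and 622 and 988 in growing cells. The states were ordered with no overlap, RB-KD OIS being the highest. The log2 fold change against growing cells was 2.27 ± 0.20 (adjusted p = 2.8e-05) in RB-KD OIS and 1.37 ± 0.20 (adjusted p = 0.000452) in Ctrl-KD OIS cells. Periostin (POSTN), a collagen- and integrin-binding protein of remodelled matrix, gave 28624 and 22541 in RB-KD OIS, 17196 and 16594 in Ctrl-KD OIS and 7799.9 and 5951 in growing cells. Its order was the same, with log2 fold changes of 1.90 ± 0.14 (adjusted p = 1.22e-05) and 1.31 ± 0.14 (adjusted p = 8.08e-05). Tenascin C (TNC), induced in wounds and tumour stroma, gave 17967 and 17880.2 in RB-KD OIS, 15262 and 15340.2 in Ctrl-KD OIS and 7029 and 6577 in growing cells. It was higher on all 4 OIS arrays, by 1.40 ± 0.07 (adjusted p = 1.55e-06) in RB-KD OIS and 1.17 ± 0.07 (adjusted p = 3.18e-06) in Ctrl-KD OIS cells. The mean of its probe sets gave -0.10 in Ctrl-KD OIS (adjusted p = 0.866) and includes a dim one that read 58.9 and 3.6 there. LAMA4, a laminin alpha chain of vessel and mesenchymal basement membranes, read 1675 and 2418 in RB-KD OIS, 2096 and 2299 in Ctrl-KD OIS and 892 and 985 in growing cells. It was likewise higher on all 4 OIS arrays (1.10 ± 0.16, adjusted p = 0.000658 and 1.23 ± 0.16, adjusted p = 0.000272), with the arrays of both OIS states intermixed.

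The promoter of POSTN carries the letters of an AP-1 element, and so does that of TNFAIP6, which is described among the hyaluronan genes. AP-1, the Jun and Fos family of factors, acts downstream of Ras. A window of 250 bases before to 50 bases after the start was given by RefSeq (GRCh38.p14) for 41 of the 50 members, and TGANTCA, searched on both strands, stood in those of 4 of them (ECM1, MFAP2, POSTN and TNFAIP6), beside 7.71% of 35116 windows. Of these 4, POSTN and TNFAIP6 were called higher in both OIS states, and ECM1 and MFAP2 were not called in any comparison. TTGCNNAA, the letters of a C/EBP element, was in 3 (FBLN5, LTBP1 and SDC1), beside 10.5% of windows, and an NF-kB element and TTTCCCGC, the letters of an E2F element, were in 0, beside 1.61% and 1.63%. These are matches of letters and not sites shown to be used. Members were counted by gene and the background by window, so these are unlike measures, and nothing is read from the counts. The 250 bases before the start of POSTN (chr13:37598769-37599018, minus strand) and TNFAIP6 (chr2:151357342-151357591, plus strand) are shown because these members rose, with TGANTCA in capitals, beginning 220 and 129 bases before the start.
POSTN: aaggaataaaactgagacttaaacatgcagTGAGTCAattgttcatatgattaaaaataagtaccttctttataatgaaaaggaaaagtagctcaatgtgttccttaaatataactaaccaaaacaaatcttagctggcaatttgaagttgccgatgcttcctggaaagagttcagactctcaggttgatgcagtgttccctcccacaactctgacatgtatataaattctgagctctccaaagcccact
TNFAIP6: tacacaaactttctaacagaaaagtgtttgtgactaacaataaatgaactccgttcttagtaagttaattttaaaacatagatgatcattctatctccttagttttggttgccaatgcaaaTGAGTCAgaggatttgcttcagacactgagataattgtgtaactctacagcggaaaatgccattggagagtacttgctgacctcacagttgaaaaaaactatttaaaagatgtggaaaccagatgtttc

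Lower glycoproteins included basement membrane components and matrilin 2. MATN2, a filament-forming adaptor of the matrix, read 104 and 122 in RB-KD OIS, 76.3 and 102 in Ctrl-KD OIS and 646 and 716 in growing cells. It was low on all 4 OIS arrays and was lower by 6.05-fold in RB-KD OIS and 7.71-fold in Ctrl-KD OIS cells (log2 -2.60 ± 0.24, adjusted p = 4.29e-05 and -2.95 ± 0.24, adjusted p = 1.4e-05). Thrombospondin 1 (THBS1), an activator of latent TGF-beta, read 13077 and 12627 in RB-KD OIS, 7757 and 5831 in Ctrl-KD OIS and 20019.7 and 22613 in growing cells. Nidogen 2 (NID2), which links laminin with type IV collagen, gave 6202 and 6508 in RB-KD OIS, 3316 and 3426 in Ctrl-KD OIS and 8317 and 8393 in growing cells. In both, the Ctrl-KD OIS arrays were the lowest, the RB-KD OIS arrays lay between and no states overlapped. Against growing cells, the log2 fold change of THBS1 was -0.73 ± 0.13 (adjusted p = 0.00187) in RB-KD OIS and -1.66 ± 0.13 (adjusted p = 9.94e-06) in Ctrl-KD OIS, and that of NID2 -0.40 ± 0.08 (adjusted p = 0.00355) and -1.31 ± 0.08 (adjusted p = 2.07e-06).

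NID1, the other nidogen, behaved differently between the OIS states, with 5721 and 5349 in RB-KD OIS, 3405 and 2188 in Ctrl-KD OIS and 3313 and 3026 in growing cells. It was higher in RB-KD OIS than in growing cells (0.80 ± 0.17, adjusted p = 0.00574), while the Ctrl-KD OIS arrays overlapped the growing ones (-0.21 ± 0.17, adjusted p = 0.369) unless the first Ctrl-KD OIS array was left out, which gave -0.53 and an adjusted p = 0.00494. The laminin gamma chain LAMC1, a subunit of most laminins, read 11415 and 8399 in RB-KD OIS, 6584 and 6373 in Ctrl-KD OIS and 13896 and 14325 in growing cells from its brightest probe set, lower in both OIS states (-0.53 ± 0.13, adjusted p = 0.0101 in RB-KD OIS and -1.12 ± 0.13, adjusted p = 0.000108 in Ctrl-KD OIS). Its second probe set read 7327 and 6385 in RB-KD OIS, 5192 and 5218 in Ctrl-KD OIS and 4295 and 4338 in growing cells, which is higher in both OIS states (0.66, adjusted p = 0.000472 and 0.27, adjusted p = 0.0428), so the direction depends on the probe set. For the brightest probe set, the value in RB-KD OIS became -0.31 without the second RB-KD OIS array and was not called without the second growing array (-0.51, adjusted p = 0.0598). LAMB1, a beta chain of laminins, had log2 fold changes of -0.24 and -0.23, with adjusted p of 0.0444 and 0.0481. In both states that call ended when any 1 of the 2 growing or 2 RB-KD OIS arrays was left out, and in Ctrl-KD OIS also without the second Ctrl-KD OIS array (-0.17, adjusted p = 0.153).

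From their brightest probe sets, FN1, SPARC, TGFBI and ECM1 were not called in any comparison. The signals of the first 3 of them were above 99.2% of all probe sets or more on every array. Fibronectin (FN1), the main scaffold for cell attachment, read 38295 and 34388 in RB-KD OIS, 39759 and 38264 in Ctrl-KD OIS and 40183 and 42202 in growing cells. A much dimmer FN1 probe set was lower in RB-KD OIS than in growing cells (-0.98, adjusted p = 0.0244), and its other further ones were not called. With quantile normalization or averaged probe sets FN1 was also called lower in RB-KD OIS than in growing cells. As the second of these, SPARC, a collagen-binding matricellular protein, read 25565 and 21477 in RB-KD OIS, 23859.6 and 21855 in Ctrl-KD OIS and 26639.5 and 27247 in growing cells from its brightest probe set. The log2 fold change of SPARC was -0.20 and -0.24 against growing cells, and it passed in RB-KD OIS without the first RB-KD OIS array (-0.33, adjusted p = 0.0387) and in Ctrl-KD OIS without either RB-KD OIS array. Its second probe set read 6047 and 4142 in RB-KD OIS, 3740.4 and 3406 in Ctrl-KD OIS and 15772 and 16143 in growing cells. There all 4 OIS arrays were low and SPARC fell, with log2 fold changes of -1.67 in RB-KD OIS (adjusted p = 3.94e-05) and -2.16 in Ctrl-KD OIS (adjusted p = 5.53e-06). The p values of further probe sets were adjusted over all 25347 probe sets tested. TGFBI, an adhesion protein induced by TGF-beta, had log2 fold changes of 0.23 and -0.02, and the dermal matrix protein ECM1 0.25 and 0.20. Both passed in RB-KD OIS cells when either Ctrl-KD OIS array was left out, and TGFBI also between the OIS states without the second Ctrl-KD OIS array (0.37, adjusted p = 0.0140).

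Among the elastic fibre genes 0 rose relative to growing cells. Of the 9 tested without MFAP4 and FBLN2, 5 fell in RB-KD OIS and 6 in Ctrl-KD OIS, with medians of -0.95 and -1.05 for the log2 fold change. EFEMP1 (fibulin 3), a secreted fibulin that binds elastic fibre proteins, read 271 and 292 in RB-KD OIS, 215 and 356 in Ctrl-KD OIS and 3924 and 3275 in growing cells. FBLN1 (fibulin 1), which binds fibronectin and elastic fibres, read 220.2 and 173 in RB-KD OIS, 251 and 232 in Ctrl-KD OIS and 2457 and 2364 in growing cells. All 4 OIS arrays were far under both growing arrays. EFEMP1 was lower by 12.7-fold in RB-KD OIS and 12.9-fold in Ctrl-KD OIS cells (log2 -3.67 ± 0.22, adjusted p = 2.96e-06 and -3.69 ± 0.22, adjusted p = 2.01e-06). FBLN1 was lower by 12.3-fold and 10-fold (log2 -3.63 ± 0.16, adjusted p = 4.72e-07 and -3.32 ± 0.16, adjusted p = 6.14e-07). MFAP4, a microfibril-associated protein, read 19.9 and 33 in RB-KD OIS, 20.9 and 7.8 in Ctrl-KD OIS and 344 and 368 in growing cells. Its OIS arrays were all under the array median, so only a bound, computed against that median, can be given. The bound was at least 7.59-fold lower for RB-KD OIS (adjusted p = 0.00153) and at least 7.49-fold lower in Ctrl-KD OIS (adjusted p = 0.000305). A gene that passed the filter only through the state where it is high had to differ, so these p values add no support. FBLN2 (fibulin 2) was dim throughout, at 13.7 and 6.5 in RB-KD OIS, 28.4 and 27.6 in Ctrl-KD OIS and 90.6 and 66.8 in growing cells, with a bound of at least 1.66-fold lower for RB-KD OIS (adjusted p = 0.0212). The same holds for it, and its call ended without the second RB-KD OIS array (adjusted p = 0.0517).

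FBN2 (fibrillin 2), a microfibril backbone protein most prominent in development, read 5835 and 5149 in RB-KD OIS, 2441 and 2348 in Ctrl-KD OIS and 12839 and 12746 in growing cells. EFEMP2 (fibulin 4), required for elastic fibre assembly, read 2271 and 2092 in RB-KD OIS, 1644 and 1620.2 in Ctrl-KD OIS and 5308 and 5859.6 in growing cells. Growing arrays were the highest and Ctrl-KD OIS arrays the lowest for both genes, without overlap. The log2 fold change of FBN2 was -1.22 ± 0.09 (adjusted p = 9.45e-06) in RB-KD OIS and -2.42 ± 0.09 (adjusted p = 1.32e-07) in Ctrl-KD OIS. That of EFEMP2 was -1.36 ± 0.09 (adjusted p = 7.68e-06) and -1.77 ± 0.09 (adjusted p = 1.07e-06). FBLN5 (fibulin 5), which tethers elastin to cells, fell to about the same degree in both OIS states (-0.95 ± 0.14, adjusted p = 0.000814 and -1.05 ± 0.14, adjusted p = 0.000343), with intermixed OIS arrays. FBN1 (fibrillin 1), the main fibrillin of adult tissue, had log2 fold changes of -0.10 and -0.25 and did not pass from its brightest probe set, of 14167 to 19149. It passed in Ctrl-KD OIS cells without the second Ctrl-KD OIS array (-0.36) and from both further probe sets (-0.37 and -0.81), the dimmer of which also fell in RB-KD OIS (-0.94, adjusted p = 0.00018).

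The latent TGF-beta binding proteins, which anchor TGF-beta in microfibrils, differed from each other. LTBP1 read 16125 and 13757 in RB-KD OIS, 9811 and 9103 in Ctrl-KD OIS and 13315 and 13883 in growing cells. The RB-KD OIS arrays overlapped the growing ones (0.13 ± 0.09, adjusted p = 0.312), and the Ctrl-KD OIS arrays alone stood apart, below them (-0.52 ± 0.09, adjusted p = 0.00175). LTBP2 had log2 fold changes of -0.07 and 0.19 and did not pass (between the OIS states it did without the second Ctrl-KD OIS array, -0.38, adjusted p = 0.0489), although its second probe set fell in both OIS states (-0.35, adjusted p = 0.0365 and -0.46, adjusted p = 0.00887). MFAP2, a microfibril component, overlapped in every comparison at 421 to 614. Elastin itself (ELN) read 11.1 and 7.1 in RB-KD OIS, 33.6 and 66.5 in Ctrl-KD OIS and 20.4 and 13.6 in growing cells, and MFAP5 20.7 and 35.2 in RB-KD OIS, 23.7 and 52.7 in Ctrl-KD OIS and 32.4 and 37.8 in growing cells, and neither passed the filter. The fall of CNN1 and ACTA2 in OIS cells stands beside these elastic fibre results, and its part in them was not tested. In each OIS state 1 of the 6 genes on their marker list was higher than in growing cells.

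Of 12 tested proteoglycan and hyaluronan genes, 3 rose in both OIS states relative to growing cells, and 5 fell in RB-KD OIS and 6 in Ctrl-KD OIS cells. The largest rises of all members were in hyaluronan genes. TNFAIP6 (TSG-6), a secreted hyaluronan-binding protein induced by inflammation, read 1782 and 2188 in RB-KD OIS, 2053 and 2265 in Ctrl-KD OIS and 191 and 181 in growing cells. HAS2, the main hyaluronan synthase of fibroblasts, read 10220.3 and 12009 in RB-KD OIS, 8875 and 9389 in Ctrl-KD OIS and 964 and 1422 in growing cells. All 4 OIS arrays were far above both growing arrays. The rise of TNFAIP6 was 10.6-fold in RB-KD OIS and 11.6-fold in Ctrl-KD OIS cells (log2 3.41 ± 0.13, adjusted p = 2.26e-07 and 3.53 ± 0.13, adjusted p = 1.51e-07). That of HAS2 was 9.46-fold and 7.8-fold (log2 3.24 ± 0.16, adjusted p = 1.08e-06 and 2.96 ± 0.16, adjusted p = 1.35e-06). A second probe set of HAS2 rose alike, by 3.04 and 2.77. Syndecan 1 (SDC1), a transmembrane heparan sulfate proteoglycan best known from epithelia, read 1511 and 2372 in RB-KD OIS, 924 and 1198 in Ctrl-KD OIS and 522 and 531 in growing cells. It rose in both OIS states (1.85 ± 0.20, adjusted p = 0.000124 and 1.00 ± 0.20, adjusted p = 0.00371). The rise in Ctrl-KD OIS cells rests on this probe set, since the other one was not called there (-0.35, adjusted p = 0.232) and rose in RB-KD OIS cells (0.72, adjusted p = 0.0275). The 7 epithelial markers had a summed signal of 309.5 to 322.6 in RB-KD OIS, 170.8 to 173.3 in Ctrl-KD OIS and 152.9 to 284.2 in growing cells. Of the 3 tested, 0 were called in any comparison, and their part in the SDC1 result was not tested.

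Decorin (DCN), the small leucine-rich proteoglycan that decorates collagen fibrils and sequesters TGF-beta, read 3188 and 2774 in RB-KD OIS, 3202 and 3342 in Ctrl-KD OIS and 21450.4 and 20994 in growing cells. The 4 OIS arrays were close to each other and DCN was 7.14-fold lower in RB-KD OIS (adjusted p = 8.17e-08) and 6.49-fold lower in Ctrl-KD OIS (adjusted p = 7.52e-08). This probe set is of a kind that can match other transcripts, and a second one, not of that kind, gave 533 and 509.9 in RB-KD OIS, 608 and 649.9 in Ctrl-KD OIS and 5021 and 5027 in growing cells, with log2 fold changes of -3.27 and -3.00. Perlecan (HSPG2), the heparan sulfate proteoglycan of basement membranes, read 343 and 376 in RB-KD OIS, 446 and 502 in Ctrl-KD OIS and 1500.2 and 1564 in growing cells. It was low on all 4 OIS arrays (-2.09 ± 0.13, adjusted p = 3.91e-06 and -1.70 ± 0.13, adjusted p = 1e-05). Syndecan 4 (SDC4), a focal adhesion coreceptor for fibronectin, read 3349 and 3598 in RB-KD OIS, 1767 and 1785 in Ctrl-KD OIS and 6199 and 5569 in growing cells. Glypican 1 (GPC1), a heparan sulfate proteoglycan anchored to the membrane, read 1445 and 1725 in RB-KD OIS, 877 and 773 in Ctrl-KD OIS and 3932 and 3768 in growing cells. In both genes the RB-KD OIS arrays lay between the other states, with no overlap. The log2 fold change was -0.76 ± 0.09 (adjusted p = 0.000207) in RB-KD OIS and -1.73 ± 0.09 (adjusted p = 1.09e-06) in Ctrl-KD OIS for SDC4. It was -1.29 ± 0.12 (adjusted p = 4.05e-05) and -2.22 ± 0.12 (adjusted p = 1.07e-06) for GPC1.

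Lumican (LUM), a leucine-rich proteoglycan that shapes collagen fibrils, read 10657 and 7561 in RB-KD OIS, 3256 and 2508 in Ctrl-KD OIS and 9799.7 and 10340.3 in growing cells. The RB-KD OIS arrays lay on either side of the growing ones (-0.17 ± 0.17, adjusted p = 0.477), and the Ctrl-KD OIS arrays alone were low (-1.82 ± 0.17, adjusted p = 2.75e-05). Versican (VCAN), a large hyaluronan-binding proteoglycan, had log2 fold changes of -0.17 in RB-KD OIS (adjusted p = 0.132) and -0.50 in Ctrl-KD OIS (adjusted p = 0.00114) against growing cells. Biglycan (BGN), a close relative of decorin, read 209 and 187 in RB-KD OIS, 374 and 361 in Ctrl-KD OIS and 361 and 423 in growing cells. Here the RB-KD OIS arrays alone were low, -0.98 ± 0.18 (adjusted p = 0.00207) against growing cells, and Ctrl-KD OIS cells were not called (-0.09 ± 0.18, adjusted p = 0.725). FMOD and PRELP, both leucine-rich collagen-binding proteins, were dim (49.8 to 207.7 over all arrays) and not called in any comparison, and osteoglycin (OGN) read at most 22.2 on any array.

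All 10 crosslinking and collagen-modifying genes were tested and all 10 were called in both OIS states relative to growing cells. The 4 hydroxylases among them rose, whereas the 5 lysyl oxidases and the collagen chaperone SERPINH1 (HSP47) fell. LOXL1, a lysyl oxidase that elastic fibre renewal requires in mice, read 606 and 629.6 in RB-KD OIS, 1007 and 927 in Ctrl-KD OIS and 4555 and 4103 in growing cells. The states were apart, with RB-KD OIS the lowest. LOXL1 was lower by 7-fold in RB-KD OIS and 4.47-fold in Ctrl-KD OIS cells (log2 -2.81 ± 0.11, adjusted p = 1.92e-07 and -2.16 ± 0.11, adjusted p = 7.2e-07). LOXL3 read 306 and 138 in RB-KD OIS, 199 and 107 in Ctrl-KD OIS and 946 and 816 in growing cells and LOXL4 159 and 252 in RB-KD OIS, 214 and 275 in Ctrl-KD OIS and 744 and 924 in growing cells. Both were low on all 4 OIS arrays, with wide replicate spread there. Their log2 fold changes were -2.09 ± 0.38 (adjusted p = 0.00234) and -2.59 ± 0.38 (adjusted p = 0.000555) for LOXL3 and -2.05 ± 0.25 (adjusted p = 0.000199) and -1.77 ± 0.25 (adjusted p = 0.000378) for LOXL4. LOX, the founding member of the family, had log2 fold changes of -0.66 and -0.82, and LOXL2, which crosslinks basement membrane collagen, -0.55 and -0.91. LOXL2 in RB-KD OIS was not called without the first growing array (-0.55, adjusted p = 0.0513) and was -0.32 without the second RB-KD OIS array (adjusted p = 0.0444). Values for SERPINH1 were -0.84 and -0.73, with adjusted p of 9.97e-05 and 0.000191.

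These 4 hydroxylases, P4HA1, P4HA2, PLOD1 and PLOD2, act on procollagen in the endoplasmic reticulum. P4HA2, a catalytic subunit of prolyl 4-hydroxylase, which stabilizes the collagen triple helix, read 16316 and 14246 in RB-KD OIS, 15332 and 15921 in Ctrl-KD OIS and 8474 and 9251 in growing cells. P4HA1, the other main catalytic subunit, read 10935 and 9609 in RB-KD OIS, 10795 and 9955 in Ctrl-KD OIS and 7351 and 7921 in growing cells. PLOD1, a lysyl hydroxylase that modifies the helix, read 4572 and 4078 in RB-KD OIS, 4749.9 and 4542 in Ctrl-KD OIS and 3024 and 2996 in growing cells. In these 3 genes both OIS states lay above growing cells and overlapped each other. Their log2 fold changes in RB-KD OIS and Ctrl-KD OIS were 0.78 and 0.82 for P4HA2, 0.43 and 0.44 for P4HA1 and 0.52 and 0.63 for PLOD1. With the mean of its probe sets P4HA2 was not called (log2 fold changes of 0.013 in RB-KD OIS and 0.00064 in Ctrl-KD OIS). That mean includes a probe set under the median on all arrays, which read at most 15. The other tested probe set of P4HA2 rose in RB-KD OIS (0.52, adjusted p = 0.0074) and in Ctrl-KD OIS (0.71, adjusted p = 0.00105). P4HA1 was not called without the first growing array (adjusted p = 0.0681 in RB-KD OIS and 0.0525 in Ctrl-KD OIS, log2 fold changes of 0.37 and 0.39). PLOD2, the lysyl hydroxylase of the collagen telopeptides, whose product favours stable crosslinks, read 11429.9 and 11109 in RB-KD OIS, 17456 and 16355 in Ctrl-KD OIS and 8651 and 8542 in growing cells. Its highest arrays were those of Ctrl-KD OIS cells, and its log2 fold change was 0.39 ± 0.08 (adjusted p = 0.0032) in RB-KD OIS and 0.97 ± 0.08 (adjusted p = 1.03e-05) in Ctrl-KD OIS. The second probe set of PLOD2 rose in Ctrl-KD OIS (0.81, adjusted p = 0.00105) and was -0.03 in RB-KD OIS (adjusted p = 0.878).

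**Figure D2:**
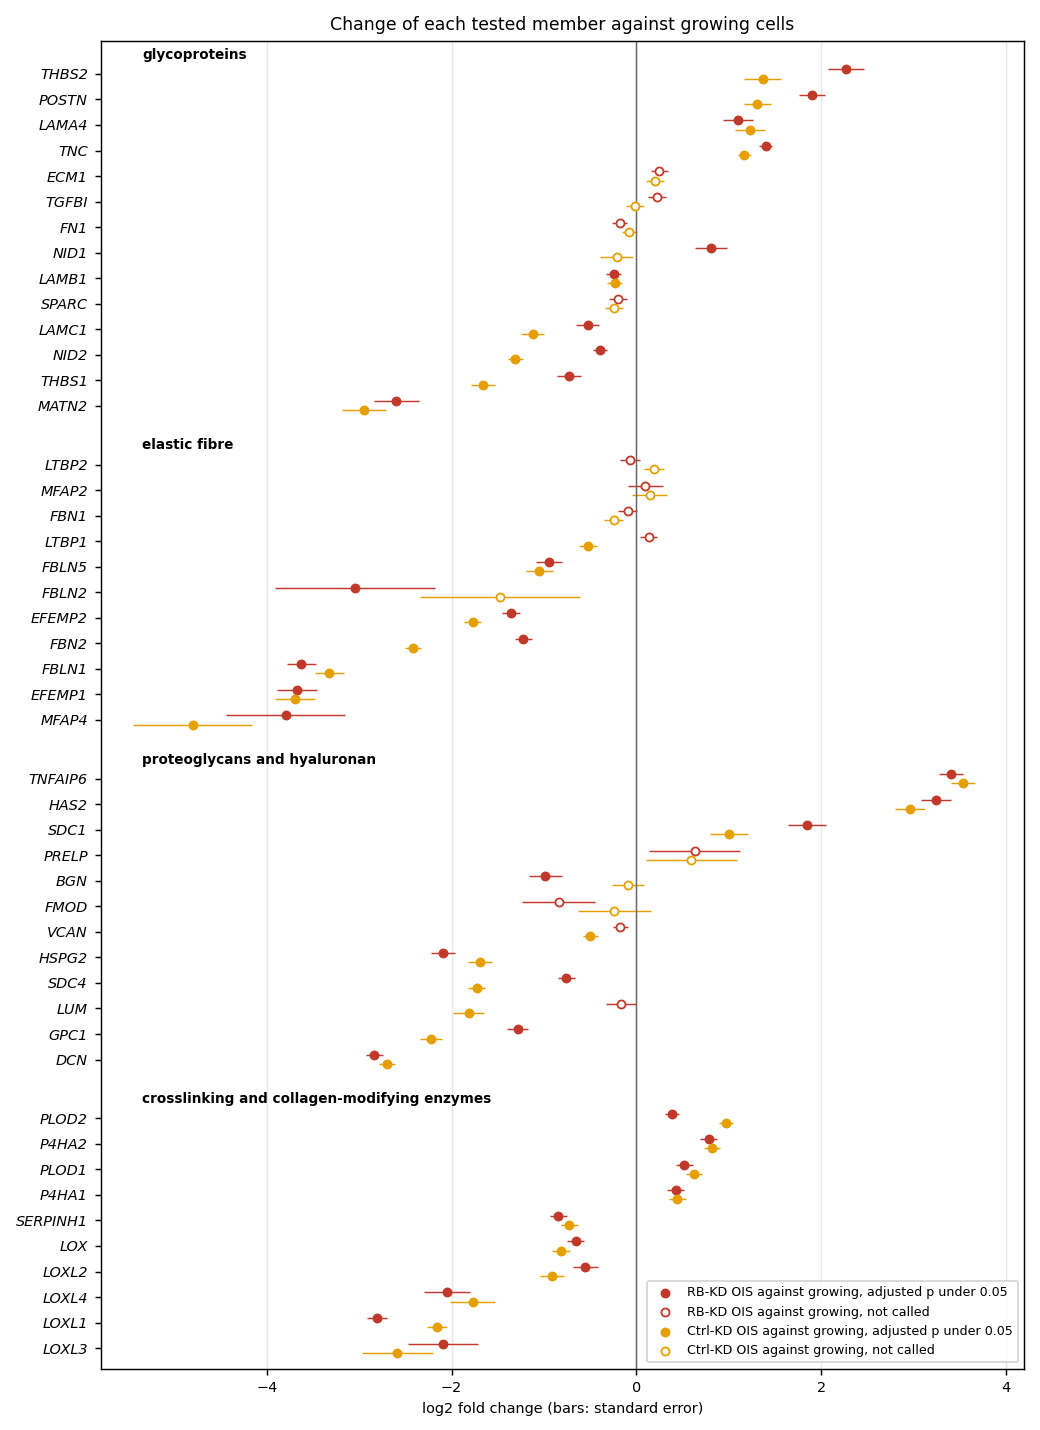
Log2 fold change of the 47 tested members against growing cells (x axis) in RB-KD OIS and in Ctrl-KD OIS, with standard errors as bars, by class, and filled points where the adjusted p was under 0.05. All called elastic fibre genes lie left of 0, but MFAP4 and FBLN2 passed the filter only through the growing arrays. Without these 2, 5 were called in RB-KD OIS and 6 in Ctrl-KD OIS. P4HA1, P4HA2, PLOD1 and PLOD2 lie right of 0 and the 5 lysyl oxidases left of it. TNFAIP6 and HAS2 are the highest, at 3.41 and 3.24 in RB-KD OIS.

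Set side by side, the calls against growing cells were never in opposite directions, with 11 members higher and 21 lower in both OIS states. Between the OIS states themselves, the 14 members that were higher in RB-KD OIS cells comprised 6 glycoproteins, 5 proteoglycans and 3 elastic fibre genes, and the 3 lower ones were BGN, LOXL1 and PLOD2. LUM had the largest difference among them, at 3.14-fold (log2 1.65 ± 0.17, adjusted p = 0.000209), followed by FBN2 (1.20 ± 0.09, adjusted p = 3.67e-05) and NID1 (1.02 ± 0.17, adjusted p = 0.00316). Both RB-KD OIS arrays were above both Ctrl-KD OIS arrays in all 14. Cell surface proteoglycans and thrombospondins were also among them. Log2 fold changes were 0.97 ± 0.09 (adjusted p = 0.000156) for SDC4, 0.94 ± 0.12 (adjusted p = 0.000663) for GPC1, 0.93 ± 0.13 (adjusted p = 0.00104) for THBS1 and 0.91 ± 0.08 (adjusted p = 8.23e-05) for NID2. They were 0.66 ± 0.09 (adjusted p = 0.00129) for LTBP1 and 0.60 ± 0.13 (adjusted p = 0.00955) for LAMC1, LAMC1 in both of its probe sets. The remaining 5, with smaller or less even differences, were THBS2 (0.90), SDC1 (0.85), POSTN (0.59), EFEMP2 (0.42) and VCAN (0.32), with adjusted p of 0.01 to 0.0214.

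Each of these 5 calls ended in 1 or more of the fits that left out 1 array. Such a fit has fewer arrays to estimate the spread, so a lost call does not show that 1 array carried the difference. VCAN kept its value of 0.32 without either growing array, and POSTN was 0.61 without the first Ctrl-KD OIS array, beside 0.59 with all arrays. POSTN was not called without either Ctrl-KD OIS array (0.61 and 0.56) or without the first RB-KD OIS array (0.42, adjusted p = 0.120). THBS2 was not called without the second Ctrl-KD OIS array (0.76) or the first RB-KD OIS array (0.84), and SDC1 not without the first Ctrl-KD OIS array (0.66) or the second RB-KD OIS array (0.52, adjusted p = 0.0887). EFEMP2 was not called without the first RB-KD OIS array (0.36), and VCAN lost its call without either growing array, the second Ctrl-KD OIS array or either RB-KD OIS array (0.24 to 0.34). LAMC1 became 0.37 without the first RB-KD OIS array (adjusted p = 0.0362). LUM, FBN2, NID1, SDC4, GPC1, THBS1, NID2, LTBP1, BGN, LOXL1 and PLOD2 were called whichever array was left out.

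In the other direction BGN was lower after RB depletion by 1.86-fold (log2 -0.89 ± 0.18, adjusted p = 0.00636), LOXL1 by 1.57-fold (log2 -0.65 ± 0.11, adjusted p = 0.00261) and PLOD2 by 1.5-fold (log2 -0.58 ± 0.08, adjusted p = 0.000785). Among the members higher in RB-KD OIS cells, 10 were members that had fallen in Ctrl-KD OIS cells (LUM, FBN2, SDC4, GPC1, THBS1, NID2, LTBP1, LAMC1, EFEMP2 and VCAN, of 24 that fell). The comparisons share the Ctrl-KD OIS arrays, and the overlap is given as a count only. By level, LUM, LTBP1 and VCAN were not called between RB-KD OIS and growing cells, while the other 7 stayed lower than in growing cells. Another 3 members, THBS2, POSTN and SDC1, had risen in Ctrl-KD OIS cells and were higher still in RB-KD OIS cells. For 30 members no difference between the OIS states was called. They included genes with the largest changes against growing cells, such as EFEMP1 (0.02 ± 0.22), TNFAIP6 (-0.13 ± 0.13), HAS2 (0.28 ± 0.16), FBLN1 (-0.30 ± 0.16) and DCN (-0.14 ± 0.09). Of these, both RB-KD OIS arrays were under both Ctrl-KD OIS arrays for FBLN1 and DCN and above them for HAS2. P4HA1, P4HA2, PLOD1, LOX, LOXL2, LOXL3 and LOXL4 were among the 30, and LOXL2 passed without the second RB-KD OIS array (0.59). Of the 12 fibroblast markers, 3 were higher in RB-KD OIS than in Ctrl-KD OIS cells (COL3A1, DDR2 and THY1) and 0 lower. That is 25% called, beside 24.2% of all genes, so nothing is read from it. The part of these markers in the member results was not tested.

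**Figure D3:**
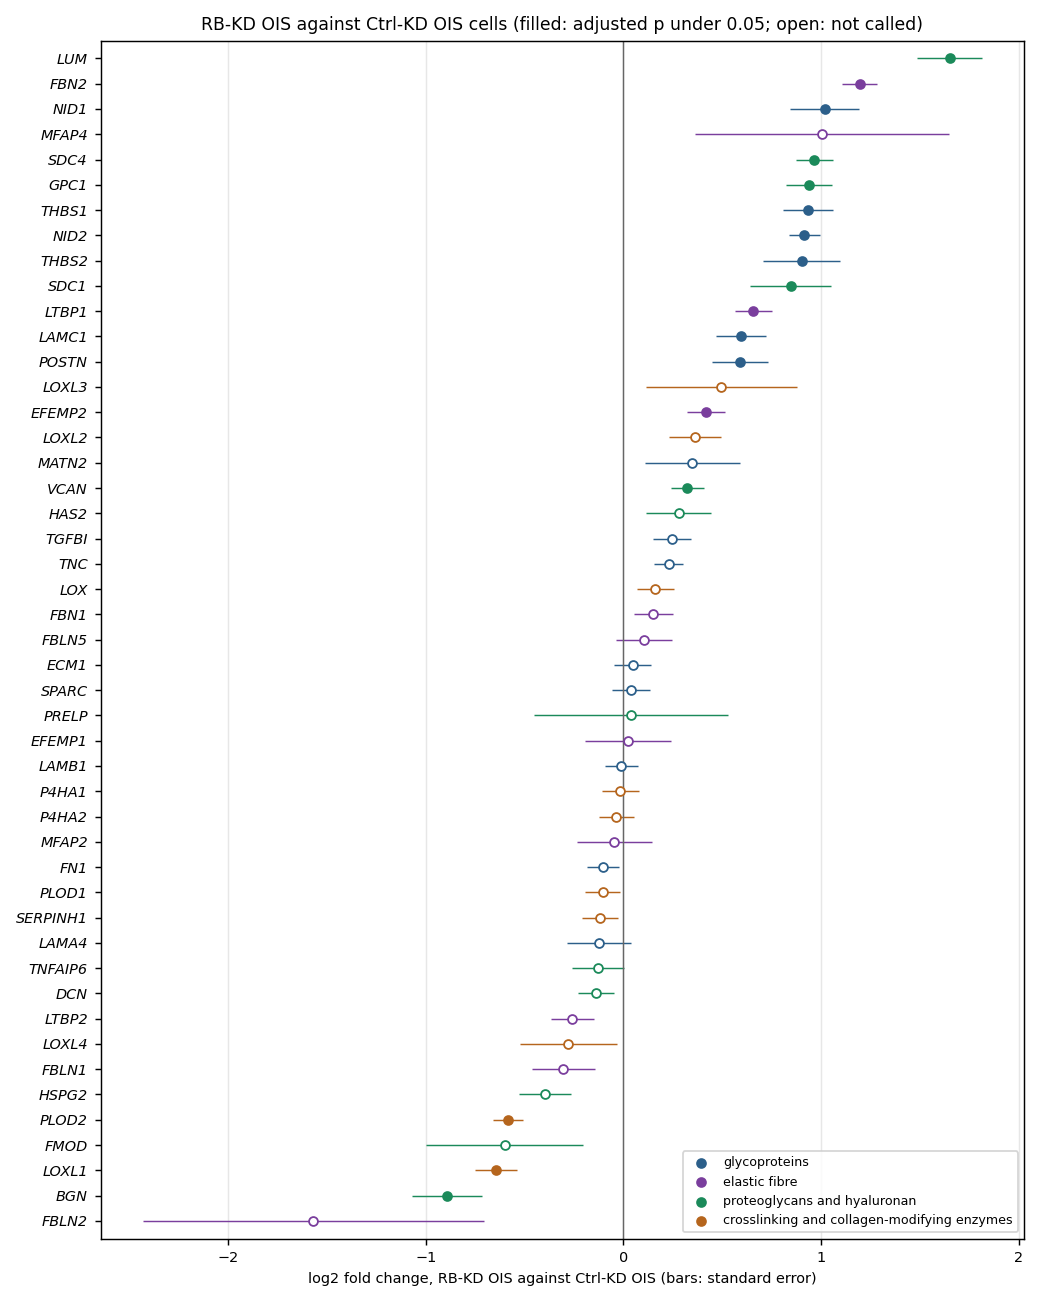
Log2 fold change of the 47 tested members in RB-KD OIS relative to Ctrl-KD OIS (x axis), with standard errors as bars, coloured by class and filled where the adjusted p was under 0.05. The 14 filled points on the right run from VCAN (0.32) to LUM (1.65), and the 3 on the left are BGN, LOXL1 and PLOD2.

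Most genes with several probe sets gave the same direction from each. The 50 members had 124 probe sets, and 55 of the 74 that were not the brightest passed the filter, for 29 genes. Against growing cells, in RB-KD OIS 35 of the 37 further probe sets of called genes had the sign of the brightest and 24 were called that way. These were 37 and 29 of 40 for Ctrl-KD OIS against growing cells, and 21 and 14 of 24 between the OIS states. The 1 further probe set called in the opposite direction, in both comparisons with growing cells, was that of LAMC1. The second probe sets gave the LUM difference between the OIS states as 1.83, that of NID1 as 1.04, that of BGN as -1.04 and that of THBS1 as 1.36, all called, whereas the further probe sets of FBN2 were dim and not called (0.66 and 0.68). Of the 6 further probe sets of THBS1, 3 were called in that comparison and 3 dim ones, with negative values, were not. Against growing cells the 3 called ones fell further than the brightest, with log2 fold changes of -1.12 to -1.91 in RB-KD OIS and -2.57 to -2.72 in Ctrl-KD OIS. Brightest probe sets of FN1, DCN, VCAN and BGN are of the kind that can match other transcripts, and for BGN the other called probe set is of that kind too. When all probe sets of a gene, dim ones included, were averaged, 11 of the 35 calls in RB-KD OIS and 9 of the 35 in Ctrl-KD OIS against growing cells were lost, and 6 of the 17 between the OIS states. Against growing cells the losses in both states were TNC, MATN2, HSPG2, LOXL2, LOXL4 and P4HA2. Between the OIS states they were POSTN, NID1, FBN2, EFEMP2, BGN and GPC1.

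**Figure D4:**
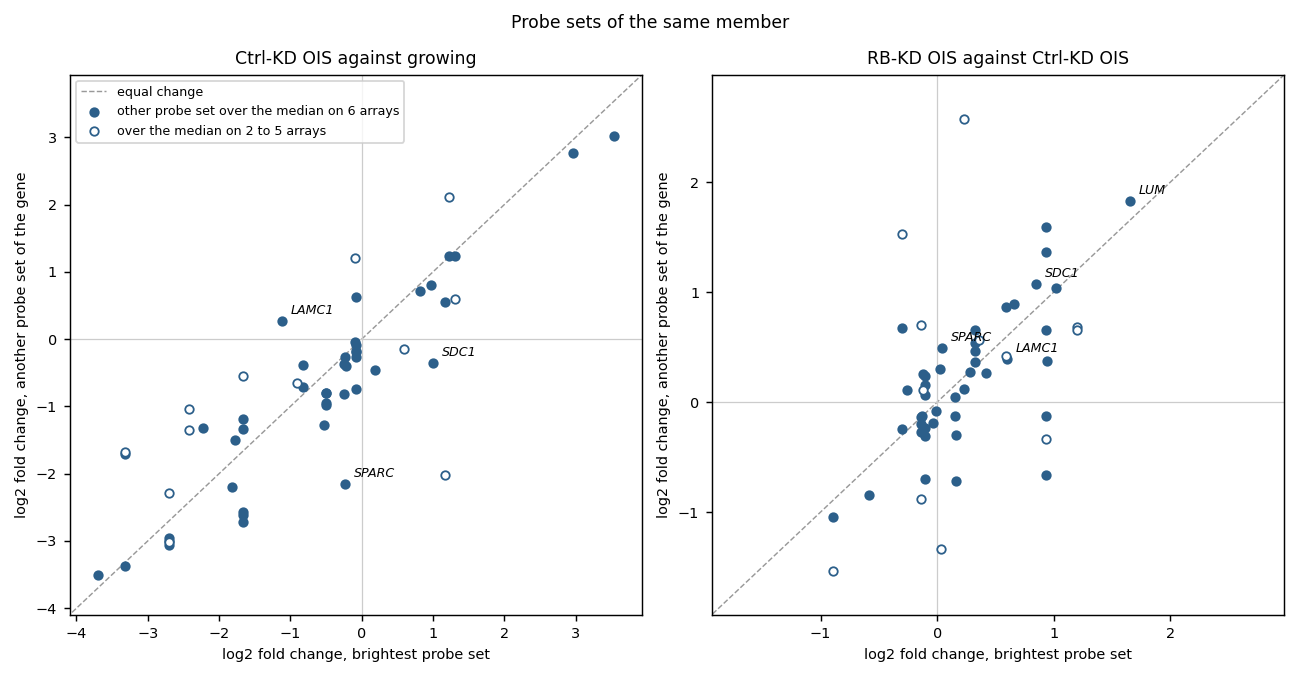
Log2 fold change of every further tested probe set (y axis) against that of the brightest probe set of the same gene (x axis), for Ctrl-KD OIS against growing cells on the left and RB-KD OIS relative to Ctrl-KD OIS on the right, with filled points above the array median on all 6 arrays. Most points follow the dashed line of equal change, while LAMC1 (-1.12 and 0.27) and SPARC (-0.24 and -2.16) on the left stand off it.

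Related genes outside the 50 were read from lists of the same families, whose shares called stand beside the backgrounds of 37.6% (RB-KD OIS against growing cells), 41.7% (Ctrl-KD OIS against growing cells) and 24.2% (between the OIS states). They were 60.9%, 65.2% and 39.1% for other matrix glycoproteins, 23.1%, 38.5% and 30.8% for other proteoglycans, 12.5%, 37.5% and 12.5% for other elastic fibre genes and 83.3%, 66.7% and 16.7% for other laminin chains. They were 50%, 59.4% and 28.1% for glycosaminoglycan synthesis, 37.5%, 62.5% and 25% for other hyaluronan genes, 45%, 35% and 25% for other collagen-modifying genes and 43.8%, 75% and 56.2% for integrins and collagen receptors. Several of these shares are near or under the background, and nothing is read from them. Of 23 tested other matrix glycoproteins, 6 rose and 8 fell in RB-KD OIS and 6 rose and 9 fell in Ctrl-KD OIS cells relative to growing cells, and 6 were higher and 3 lower in RB-KD OIS relative to Ctrl-KD OIS. MXRA5, a secreted matrix protein, read 2099 and 1408 in RB-KD OIS, 581 and 355 in Ctrl-KD OIS and 876 and 1034 in growing cells, and its log2 fold change between the OIS states was 1.92 (adjusted p = 0.000757). Osteopontin (SPP1), a secreted integrin ligand, read 65.6 and 81 in RB-KD OIS, 205 and 358 in Ctrl-KD OIS and 39.5 and 50.6 in growing cells, and ABI3BP, a secreted matrix protein too, 45.8 and 47.3 in RB-KD OIS, 306 and 305 in Ctrl-KD OIS and 96.6 and 91 in growing cells. Both were highest on the Ctrl-KD OIS arrays and lower after RB depletion (-1.89, adjusted p = 0.00779 and -2.72, adjusted p = 0.000306). Of 13 tested other proteoglycans 0 rose, 3 fell in RB-KD OIS and 5 in Ctrl-KD OIS cells, and 4 were higher in RB-KD OIS relative to Ctrl-KD OIS, among them glypican 6 (GPC6, 1.25) and syndecan 2 (SDC2, 0.92). Of 8 tested genes on the list of other elastic fibre genes 0 rose, and 1 fell in RB-KD OIS and 3 in Ctrl-KD OIS cells. On that list, MFAP1 alone was higher in RB-KD OIS relative to Ctrl-KD OIS (0.43). No role of MFAP1 in elastic fibres is shown by these data, so nothing is read from it for the class. Of 6 tested other laminin chains, 2 rose and 3 fell in RB-KD OIS and 1 rose and 3 fell in Ctrl-KD OIS cells. LAMB3, the beta chain of epithelial laminin, was under the median on both growing arrays and passed through the OIS arrays, with bounds of at least 9.03-fold higher in RB-KD OIS and 6.4-fold higher in Ctrl-KD OIS. LAMA1 was the 1 chain higher in RB-KD OIS relative to Ctrl-KD OIS (0.74).

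Against growing cells, genes of glycosaminoglycan synthesis and other hyaluronan genes were called in both directions. Between the OIS states 28.1% and 25% of them were called, beside 24.2% of all genes, and nothing is read from these shares. Of 32 tested glycosaminoglycan synthesis genes, 10 rose and 6 fell in RB-KD OIS and 13 rose and 6 fell in Ctrl-KD OIS cells relative to growing cells, and 3 were higher and 6 lower in RB-KD OIS relative to Ctrl-KD OIS. The chondroitin sulfotransferase CHST11 read 1077 and 1234 in RB-KD OIS, 809 and 824 in Ctrl-KD OIS and 74.6 and 94.7 in growing cells and rose in both OIS states (3.78 and 3.28). CSGALNACT1, which starts chondroitin chains, was higher in RB-KD OIS cells (1.60 against Ctrl-KD OIS), and B4GALT7 and XYLT2, which build the linker shared by these chains, were lower (-0.79 and -0.71). Of 8 tested hyaluronan genes other than HAS2 and TNFAIP6, 1 rose and 2 fell in RB-KD OIS and 2 rose and 3 fell in Ctrl-KD OIS cells, and 2 were higher in RB-KD OIS relative to Ctrl-KD OIS. CEMIP, which depolymerizes hyaluronan, read 575 and 267 in RB-KD OIS, 113 and 102 in Ctrl-KD OIS and 5573 and 4970.3 in growing cells. It was low on all 4 OIS arrays, with RB-KD OIS between the other states (-3.75 in RB-KD OIS and -5.62 in Ctrl-KD OIS, and 1.87 between the OIS states, adjusted p = 0.00205), whereas the related CEMIP2 rose in both (1.38 and 1.45). CD44, the main hyaluronan receptor, was higher in RB-KD OIS relative to Ctrl-KD OIS (0.43, adjusted p = 0.0176).

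Of 20 tested other collagen-modifying genes, 4 rose and 5 fell in RB-KD OIS and 1 rose and 6 fell in Ctrl-KD OIS cells, and 3 were higher and 2 lower in RB-KD OIS relative to Ctrl-KD OIS. The other catalytic hydroxylases of this list were lower or not called against growing cells, and P4HB, the beta subunit of prolyl 4-hydroxylase, rose in RB-KD OIS (0.38) and was not called in Ctrl-KD OIS (0.19). PLOD3, a lysyl hydroxylase, was 0.04 in RB-KD OIS (adjusted p = 0.741) and -0.27 in Ctrl-KD OIS (adjusted p = 0.0318). P3H1, a prolyl 3-hydroxylase, was -0.35 (adjusted p = 0.018) and -0.14 (adjusted p = 0.278). P3H2, another prolyl 3-hydroxylase, had the largest falls (-1.41 and -2.27) and was higher in RB-KD OIS relative to Ctrl-KD OIS (0.86). FKBP14, a prolyl isomerase of the endoplasmic reticulum, read 2743 and 2201 in RB-KD OIS, 4192 and 3958 in Ctrl-KD OIS and 2534 and 2719 in growing cells. Like PLOD2 it was highest on the Ctrl-KD OIS arrays, and it was lower in RB-KD OIS cells (-0.73, adjusted p = 0.00211). The receptors on the cell side were also followed. Of 16 tested integrins and collagen receptors, 3 rose and 4 fell in RB-KD OIS and 4 rose and 8 fell in Ctrl-KD OIS cells relative to growing cells, and 7 were higher and 2 lower in RB-KD OIS relative to Ctrl-KD OIS. The collagen- and laminin-binding ITGA1 read 1403 and 881 in RB-KD OIS, 477 and 235 in Ctrl-KD OIS and 1396 and 1114 in growing cells, higher in RB-KD OIS relative to Ctrl-KD OIS by a log2 fold change of 1.73 (adjusted p = 0.00459), and the fibronectin-binding ITGA4 was higher by 1.06. ITGB3 and ITGA5 were lower (-0.61 and -0.42). ITGB8, whose heterodimer activates latent TGF-beta, rose in both OIS states (2.56 and 3.02).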

How the data were processed

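RNA of 6 IMR90 ER:Ras samples, in 3 states with 2 biological replicates each, was hybridized by the authors to Affymetrix U133 Plus 2.0 arrays, which measure each gene through 1 or more probe sets. The deposited intensities are linear MAS5 signals that the authors computed in Affymetrix Expression Console, with versions not given in the sources used here, scaled to a common trimmed mean (496.15 to 496.465) and without detection calls. A scaled level is relative, so a shift of all mRNA in 1 state would not be seen. Precision is limited by the number of arrays.

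The log2 of each signal was used with no offset. Each gene was represented by its probe set of highest mean log2 signal, among those that name 1 gene (41091 of 54613, with 1801 naming several genes and 11721 unnamed), which gave 19775 genes. The 13398 genes with a signal over the median of their array on 2 or more of the 6 were fitted with limma 3.58.1 in R 4.3.3, as state means over all 6 arrays with a prior variance following the signal, and p values, called under 0.05, were adjusted after Benjamini and Hochberg. The p values rest on the spread between these biological replicates, drawn toward that prior from all genes tested. For a gene that stayed under the median on both arrays of a state, the fold is a bound set by the median. The fit was tested on simulated data. The replicate numbers were not used to pair arrays, since deviations of same-numbered arrays correlated at r = 0.035, 0.010 and -0.0038.

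The members, the related lists, the markers and the tests were chosen with earlier results of these data known. Members given on every array are, in each of the 4 classes and 3 comparisons, up to 3 called members per direction with the largest change and no overlap of arrays, those that changed by at least 1 on the log2 scale between the OIS states, and those whose probe sets disagreed. FN1, SPARC, FBLN2, ELN and MFAP5 and several related genes were added after their values were seen. Alternatives tried were normalization by quantiles or by medians, an offset of 12.5, no filter or a stricter one, averaged probe sets, no variance trend, only the compared states, a replicate block, each array left out in turn and, added after the data were seen, the second brightest probe set.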

Additional observations from a re-analysis of the deposited data

Results flagged for a closer look

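NID1 and LTBP1 were the members whose changes against growing cells had opposite signs in the OIS states while the difference between those states was itself called. The log2 fold change of NID1 against growing cells was 0.80 in RB-KD OIS and -0.21 in Ctrl-KD OIS, and the difference was 1.02 (adjusted p = 0.00316, limma), with both RB-KD OIS arrays above both Ctrl-KD OIS arrays. LTBP1 had 0.13 in RB-KD OIS and -0.52 in Ctrl-KD OIS, with a difference of 0.66 (adjusted p = 0.00129) and the same separation of the arrays. The second probe set of LTBP1 was negative in both, at -0.38 in RB-KD OIS (adjusted p = 0.169) and -1.27 in Ctrl-KD OIS (adjusted p = 0.000725). Its opposite signs therefore rest on the brightest probe set, while the difference was called in both (0.89 in the second). From the brightest probe sets, the negative value of NID1 and the positive one of LTBP1 were not called. With 2 arrays per state, single arrays were not tested as outliers.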

How the results depend on the processing

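Of the values of single tested members under up to 15 other settings, 1980 kept their side of the threshold, of which 51 were uncalled values that changed sign, while 70 lost the call, 39 gained one and 2 reversed. Among called members with a value under all 15, the call held in each for 20 of 33 in RB-KD OIS and 24 of 34 in Ctrl-KD OIS against growing cells and for 7 of 17 between the OIS states. With the probe sets of each gene averaged, 7 members were higher in Ctrl-KD OIS cells in place of 11, and 9 were higher in RB-KD OIS relative to Ctrl-KD OIS in place of 14. The means reversed TNC in Ctrl-KD OIS (-0.10, adjusted p = 0.866) and LAMC1 in RB-KD OIS (0.068, adjusted p = 0.685), both against growing cells. Without a trend in the prior variance, 7 members were higher between the OIS states. Over all genes these settings lowered the calls between the OIS states to 874 higher and 775 lower (means) and 940 and 641 (no trend), in place of 1682 and 1556. Leaving out 1 array gave 11 to 14 members higher and 19 to 23 lower in RB-KD OIS, 10 to 11 higher and 22 to 25 lower in Ctrl-KD OIS, and 10 to 13 higher and 3 to 4 lower between the OIS states. With the second brightest probe set, calls of either probe set met the opposite sign for LAMC1 (0.66 in RB-KD OIS and 0.27 in Ctrl-KD OIS), PLOD2 in RB-KD OIS (-0.033), SDC1 in Ctrl-KD OIS (-0.35) and LTBP2 in Ctrl-KD OIS (-0.46), all against growing cells, and 8 further signs differed with neither probe set called. With a replicate block the counts were 12 higher and 23 lower, 11 and 24, and 15 and 4, so those between the OIS states differed by 1 in each direction. The replicates share only a number. The cause of these differences between settings was not tested. Signals of MFAP4, FBLN2, FMOD, PRELP, ELN, MFAP5 and OGN near or under the array median limit what can be read from them.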
